A study of Mus musculus with 6 samples.

Results

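The genes described here are 9 that govern retinoic acid in the mouse embryo, taken by their symbols from the probe annotation of a whole-genome array. They are Aldh1a2 for synthesis, Cyp26a1 and Cyp26b1 for breakdown, Crabp1 and Crabp2 for binding in the cytoplasm, the receptors Rara, Rarb and Rarg, and Stra6 for the uptake of retinol. Of the 34967 probes for transcripts on each array, 9 carried a member symbol and covered 8 of the 9 genes, with 2 probes for Rarb. No probe carried the symbol Cyp26b1. A probe whose description read as similar to P450RAI-2, a synonym of Cyp26b1 in the RefSeq gene table, is given beside the members and is not counted among them.

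RNA came from the posterior part of LMBc mouse embryos at embryonic day 9.5, cut off below the forelimb, when only the posterior neuropore was still open and embryos had 21.3 somite pairs on average. The 6 samples, each on a one-colour array, were 3 wild type and 3 Splotch null embryonic tissues, and no treatment was applied to either genotype. Splotch is a mutation of Pax3, and the labels gave neither the allele nor whether a sample was 1 embryo or several, so p-values measure only the spread between these samples, which may be technical. The source name called the tissue anterior neural tube, whereas the title, the protocol of dissection and the label for tissue placed it posteriorly. Of 12 forebrain, midbrain and hindbrain markers, 3 were not above background on any of the 6 arrays, Otx2 and Emx1 among them. Of the same list 8 were above background on all arrays, including the forebrain genes Six3, Emx2, Rax and Hesx1, so these markers did not settle the label. The 11 tail bud markers used besides Cyp26a1 were above background on all arrays on which their spots were usable.

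Retinoic acid is made from vitamin A inside the embryo. Retinol arrives bound to the plasma carrier encoded by Rbp4, is taken up through membrane receptors such as STRA6, is oxidised to retinaldehyde by RDH10 and then to retinoic acid by ALDH1A2 (RALDH2). CYP26 enzymes oxidise retinoic acid to inactive products. In the caudal mouse embryo Aldh1a2 is known for its expression in somites and Cyp26a1 for its expression in the tail bud, so that somites act as a source of retinoic acid and the tail bud as a sink. Retinoic acid reaches the nucleus with the help of CRABP2 and binds RAR receptors, which sit with RXR partners on response elements, typically direct repeats of a hexamer.

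The response elements of 2 members can be read in their promoters, and these are shown because Rarb and Cyp26a1 are known as genes that retinoic acid itself induces. The sequences are the 150 bases before the start of the gene in the RefSeq annotation of GRCm38.p6, on the strand of the gene and 5′ to 3′, with the hexamers of the repeat in capitals.
Rarb, chr14:16575477-16575626, minus strand: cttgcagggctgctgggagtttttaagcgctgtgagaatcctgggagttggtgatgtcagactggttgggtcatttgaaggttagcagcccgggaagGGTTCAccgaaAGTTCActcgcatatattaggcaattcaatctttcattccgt
Cyp26a1, chr19:37697658-37697807, plus strand: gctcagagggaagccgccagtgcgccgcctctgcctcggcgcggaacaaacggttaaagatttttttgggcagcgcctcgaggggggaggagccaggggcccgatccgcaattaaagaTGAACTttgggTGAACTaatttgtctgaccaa

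The motif searched was a direct repeat of 2 hexamers with 5 bases between them, on both strands, in the 250 bases before the start. Each hexamer could be AGGTCA or its variant GGGTCA. The forms AGTTCA and likewise GGTTCA were also allowed. The Rarb match lay 53 to 37 bases before the start and read in the direction of the gene. The Cyp26a1 match lay 32 to 16 bases before the start and read in the opposite direction, so each hexamer in capitals is AGTTCA read on the other strand. Of 32851 RefSeq promoter windows of this length, 29 held the motif, or 0.0883%, and 2 of the 15 windows of the retinoic acid genes in the table did so. Those windows belong to 8 genes, which include Cyp26b1 and leave out Crabp2. The allowed hexamers include those of the 2 printed elements, so 2 of 15 is not a measure of enrichment among these genes. A match is a description of these letters and not of binding.

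All 8 members with a probe were expressed in the posterior embryo, since each had a probe above background on all 6 arrays. None of them differed between Splotch null and wild type beyond the spread between arrays. For each of the 8, the values of the 2 genotypes overlapped, and the limma adjusted p rounded to 1. The study set the genotypes against each other to find differences in expression due to the mutation. In bulk tissue such as this, fewer cells of a type and less RNA per cell cannot be told apart. On each array 66.1% to 71.7% of probes were above background, and 277 to 422 spots were left out for their quality flags.

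Values are log2 of the background-subtracted intensity plus 50, quantile-normalized, so a difference understates the change of a dim gene, and levels of different probes cannot be compared. With limma and a Benjamini-Hochberg adjusted p under 0.05, 0 of 8 members were called, where the background was 0% of 24434 tested probes. At an unadjusted p under 0.05 the count was 0 of 8, beside 1.43% of 14310 genes (204). The genotypes did not overlap for 0 of 8 members, beside 5.1% of 13761 genes measured on all arrays. The median difference of the members was -0.072 (log2, Splotch null minus wild type), beside 0.017 over all genes, with 3 members higher and 5 lower in Splotch null. Exact two-sided permutation p-values of the members lay between 0.4 and 0.9, where 3 against 3 arrays allow none below 0.1. Of the 95% confidence intervals, the lowest bound was -0.91 for Crabp1 and the highest was 0.66 for Cyp26a1. On this scale the intervals thus ended at 0.532 and 1.58 times the wild-type level.

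**Figure D1:**
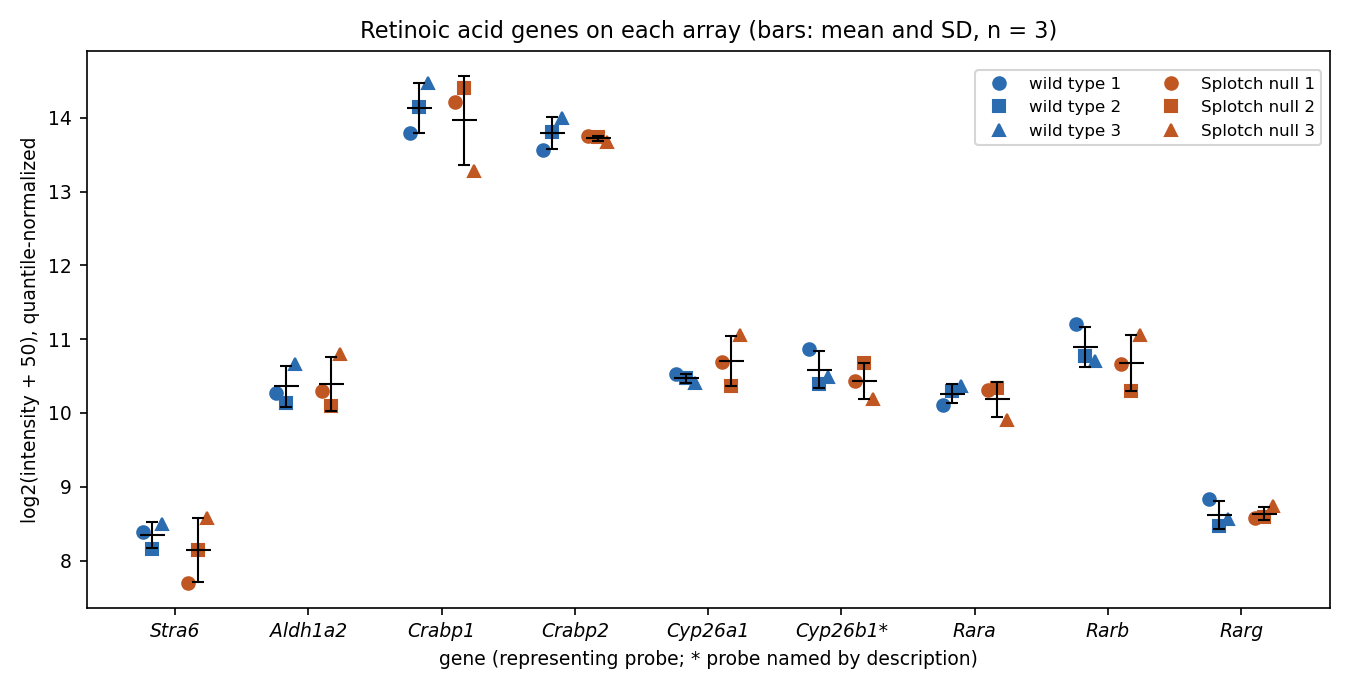
Log2(intensity + 50) of each retinoic acid gene on each of 6 arrays, with wild type in blue and Splotch null in orange, symbols for replicates 1 to 3, and black bars for the mean and SD (n = 3). For every gene the values of the 2 genotypes overlap.

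**Figure D2:**
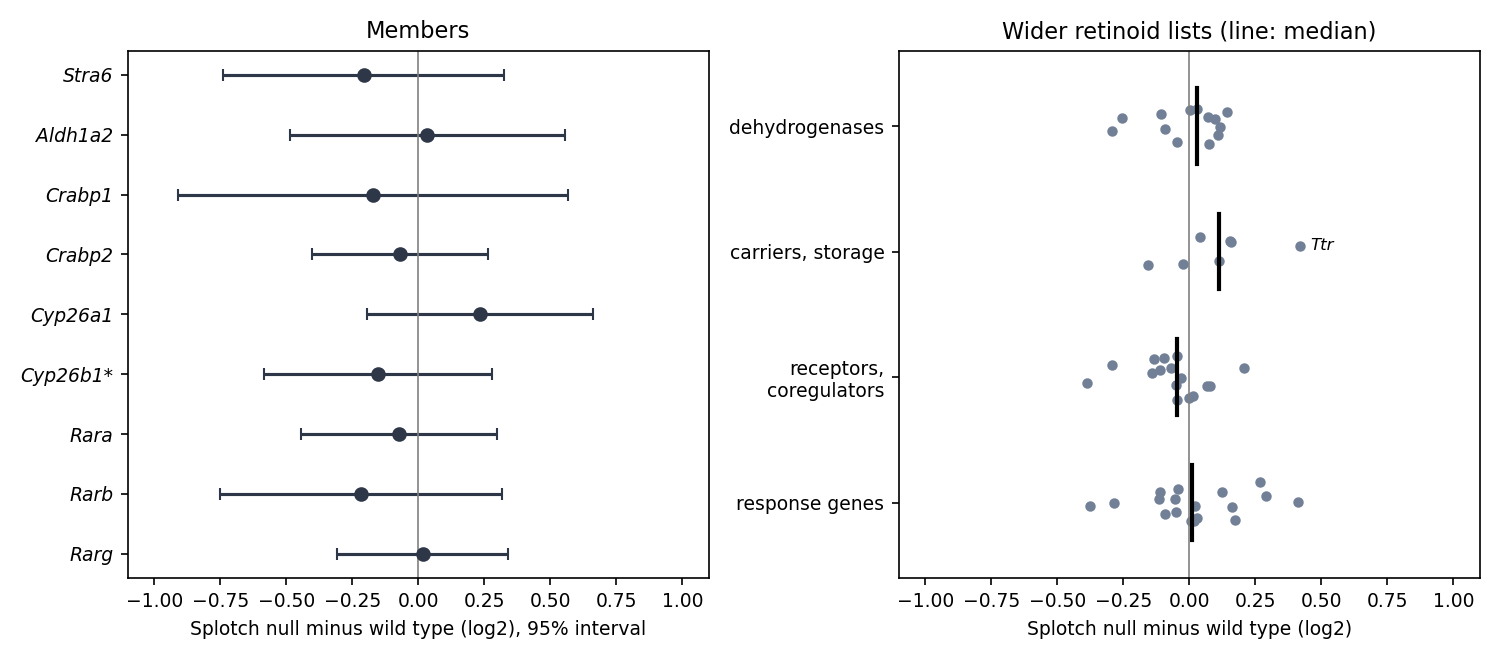
Splotch null minus wild type on the log2 scale, on the left for each member with its 95% confidence interval from limma, on the right for the 54 tested genes of the wider retinoid lists, with a black line at each list's median. The asterisk marks the probe named through the synonym P450RAI-2. Every interval of a member spans 0, and the differences of the wider lists lie between -0.39 and 0.42.

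Stra6 encodes the membrane receptor that takes up retinol from its plasma carrier. On the log2 scale it had 8.39, 8.15 and 8.49 in wild type and 7.70, 8.14 and 8.57 in Splotch null. Splotch null 1 held the lowest and Splotch null 3 the highest value, so the null arrays enclosed all wild-type arrays. The mean was 8.34 ± 0.17 (SD, n = 3) for wild type, against 8.14 ± 0.43 (SD, n = 3) for Splotch null. The genotypes thus differed by -0.21 (SE 0.23), and the 95% interval ran from -0.74 to 0.33. Without Splotch null 1 it was 0.0098, and with array weights it was -0.46 (limma unadjusted p = 0.0145, adjusted p = 0.142). With array weights, whose estimate stopped before convergence, 2798 of 14310 genes had a limma unadjusted p under 0.05, beside 204 as chosen.

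Aldh1a2 encodes the dehydrogenase that makes retinoic acid from retinaldehyde. Its log2 level was 10.27, 10.14 and 10.67 in wild type and 10.29, 10.09 and 10.80 in Splotch null. Wild type 3 and Splotch null 3 were high, and the other 4 arrays, 2 of each genotype, lay between 10.09 and 10.29. The genotype means were 10.36 ± 0.27 (SD, n = 3) and 10.39 ± 0.36 (SD, n = 3), a difference of 0.034 (SE 0.22, interval -0.49 to 0.56). The sign depended on single arrays, since the difference was -0.17 without Splotch null 3, -0.076 without wild type 2, -0.0086 without wild type 1 and 0.19 without wild type 3.

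Cyp26a1 encodes the main retinoic acid hydroxylase of the tail bud. Log2 levels were 10.53, 10.48 and 10.40 in wild type, a narrow range, and 10.68, 10.37 and 11.05 in Splotch null. Splotch null 1 and 3 lay above all wild-type arrays and Splotch null 2 lay below them. The means were 10.47 ± 0.064 (SD, n = 3) and 10.70 ± 0.34 (SD, n = 3), a difference of 0.23 (SE 0.18, interval -0.20 to 0.66), the largest of the 8 members in size. Leaving out Splotch null 2 gave 0.40 (limma unadjusted p = 0.0486, adjusted p rounding to 1), and leaving out Splotch null 3 gave 0.059.

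The probe described as similar to P450RAI-2, the CYP26B1 enzyme, had log2 levels of 10.87, 10.39 and 10.49 in wild type and 10.43, 10.67 and 10.18 in Splotch null. Its highest array was wild type 1 and its lowest Splotch null 3, with overlap between the genotypes. The difference was -0.15 (SE 0.18, interval -0.58 to 0.28).

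Synthesis and breakdown were set against each other through the deviations of Aldh1a2 and Cyp26a1 from their own means over the 6 arrays. The Aldh1a2 deviation minus the Cyp26a1 deviation was -0.047, -0.13 and 0.47 in wild type and -0.18, -0.069 and -0.047 in Splotch null. Wild type 3 alone was positive, and the other 5 arrays of both genotypes lay between -0.18 and -0.047. Both genes were highest on Splotch null 3 and lowest on Splotch null 2. The contrast had a mean of 0.0996 in wild type and -0.0996 in Splotch null, and as a score over members it was given no test.

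The tissues known to express these enzymes varied between the arrays too. The 13 markers of somites and presomitic mesoderm besides Aldh1a2, all above background on 6 arrays, had a mean log2 level of 9.02, 8.85 and 9.29 in wild type and 8.85, 8.88 and 8.98 in Splotch null. Wild type 3, with the highest somite mean, held the second highest Aldh1a2 value, and Tcf15, a transcription factor of epithelial somites, had 10.60 there and at most 9.77 elsewhere (difference -0.90, limma unadjusted p = 0.0122, adjusted p rounding to 1). Of the 14 somite genes, Aldh1a2 included, 6 were higher and 8 lower in Splotch null, with a median difference of -0.069. Tcf15 was 1 of 2 of these 14 without overlap, beside 5.1% of all genes measured on all arrays, and was named after its values were seen. The other was Msgn1, a presomitic factor, with a difference of 0.33 (SE 0.16). Splotch null 3 had the highest Aldh1a2 value at a somite mean below that of wild type 1. The summed intensity of the somite markers was 8702 to 13304 in wild type and 8978 to 10839 in Splotch null.

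The 10 tail bud markers usable on all arrays besides Cyp26a1 had a mean log2 level of 9.22, 9.34 and 9.23 in wild type and 9.55, 9.29 and 9.53 in Splotch null. Their summed intensity was 8083 to 9194 in wild type and 8595 to 11119 in Splotch null. Splotch null 1 and 3, the arrays with the 2 highest Cyp26a1 values, also had the 2 highest tail bud means. All 12 tail bud genes including Cyp26a1 were higher on average in Splotch null, with a median difference of 0.22. Of all 14310 genes 7864 were higher, with a median of 0.017. An unadjusted p under 0.05 was reached by 0 of the 12, beside 1.43% of all genes. The genotypes did not overlap for 2 of the 11 measured on all arrays, beside 5.1% of all genes so measured. The part of tissue composition in the Aldh1a2 and Cyp26a1 values was not tested.

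**Figure D3:**
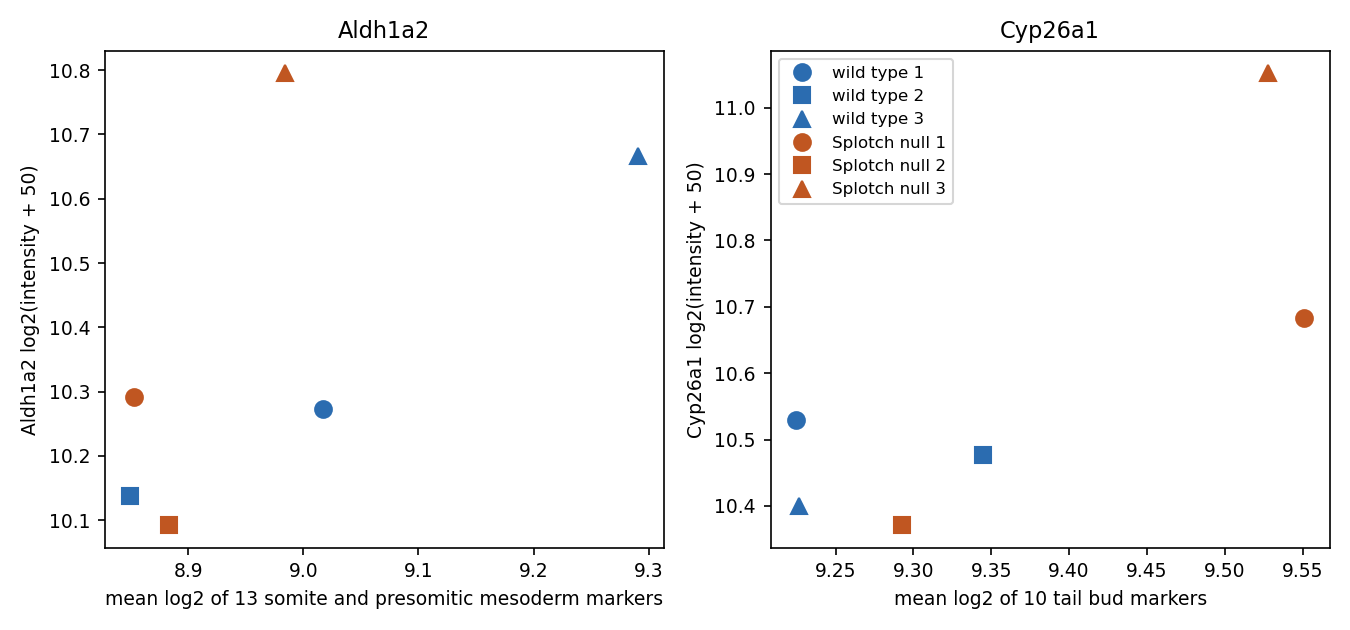
Log2 level of Aldh1a2 against the mean log2 level of 13 somite and presomitic markers (left), and of Cyp26a1 against that of 10 tail bud markers (right), with 1 point per array (wild type in blue, Splotch null in orange). Wild type 3 has the highest somite mean, and Splotch null 1 and 3 have the highest tail bud means.

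Crabp1 encodes a cytoplasmic protein that binds retinoic acid and is known for its expression in neural crest and in the neural tube. Crabp1 levels on the log2 scale were 13.79, 14.14 and 14.47 in wild type and 14.21, 14.40 and 13.28 in Splotch null. Splotch null 3 and wild type 1 were the 2 lowest, and the other 2 null arrays lay within the wild-type range. The means were 14.14 ± 0.34 and 13.96 ± 0.60 (SD, n = 3 each), a difference of -0.17 (SE 0.31, interval -0.91 to 0.57). It turned to 0.17 without Splotch null 3, and was -0.39 without Splotch null 2. Crabp1 had the widest range over the 6 arrays of the members, 1.19 on the log2 scale, beside a median range of 0.52 over all genes. The 8 neural crest markers had mean log2 levels of 8.63 to 8.74 in wild type and 8.36 to 8.47 in Splotch null, without overlap, and their summed intensity was 3291 to 3805 and 2902 to 3142. Of these markers Sox10, a neural crest transcription factor, differed most, by -1.13 (SE 0.17, limma unadjusted p = 0.00024, adjusted p rounding to 1). In a summary chosen after seeing the data, the 7 markers without Sox10 had means of 8.69 to 8.82 in wild type and 8.57 to 8.70 in Splotch null. These overlap only between wild type 3 (8.6865) and Splotch null 3 (8.6953). Of the 8 markers 6 were lower in Splotch null and 2 were higher, Ets1 by 0.13 and Snai2 by 0.062. Besides Sox10, Tfap2b did not overlap between the genotypes, with a difference of -0.39 (SE 0.15, limma unadjusted p = 0.0351, adjusted p = 0.9998). Thus 2 of the 8 did not overlap, beside 5.1% of all genes measured on all arrays. Tfap2b was named after its values were seen. Splotch null 2 held the second highest Crabp1 value. The part of neural crest in the Crabp1 values was not tested.

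Crabp2 encodes the binding protein that delivers retinoic acid to its receptors. For Crabp2 the arrays gave 13.57, 13.80 and 14.00 in wild type and 13.75, 13.73 and 13.68 in Splotch null. The 3 null arrays lay inside the wild-type range, with an SD of 0.039 beside 0.22 in wild type. The difference was -0.069 (SE 0.14, interval -0.40 to 0.26), and 0.035 without wild type 3.

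Among the receptors, Rara is widely expressed in the embryo. For Rara the arrays gave 10.11, 10.29 and 10.37 in wild type and 10.31, 10.34 and 9.91 in Splotch null. Splotch null 3 was the lowest array and wild type 1 the next, while the other 4 lay between 10.29 and 10.37. The difference was -0.075 (SE 0.16, interval -0.45 to 0.30), and 0.063 without Splotch null 3.

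Rarb, the receptor gene whose promoter is printed above, is known from the closed neural tube. Its brighter probe had log2 levels of 11.21, 10.78 and 10.70 in wild type and 10.67, 10.30 and 11.06 in Splotch null. Wild type 1 and Splotch null 3 were high, and Splotch null 2 was low. The difference was -0.22 (SE 0.23, interval -0.75 to 0.32), and leaving out Splotch null 3 or Splotch null 2 gave -0.41 or -0.03. The second Rarb probe was above background on wild type 3 and Splotch null 1 only, with levels of 6.50 on both, and was not tested.

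Rarg is known from the caudal mesenchyme and the open neural plate. Its log2 level was 8.83, 8.47 and 8.56 in wild type and 8.58, 8.59 and 8.74 in Splotch null. Wild type 1 was highest and wild type 2 lowest, with the 3 null arrays between them. The difference was 0.016 (SE 0.14, interval -0.31 to 0.34), the smallest of the members, and it turned to -0.057 without wild type 2, -0.037 without Splotch null 3, -0.015 without wild type 3 and -0.0026 under cyclic loess. Rarb and Cyp26a1, which carry the repeats printed above, differed with opposite signs, -0.22 and 0.23, and neither passed the test.

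For 5 of the 8 members the 2 brightest arrays, 1 of each genotype, stood together at 1 end of the values. Wild type 1 and Splotch null 3 had the highest median raw intensities, 116.3 and 121.1, and the other 4 arrays had 84.3 to 99.7. These 2 arrays held the 2 lowest values of Crabp1, Crabp2 and Rara, and the 2 highest of Rarb and Rarg, after quantile normalization, median scaling and cyclic loess alike. Stra6 also had its 2 highest values there under median scaling only. Of the 13761 genes measured on all arrays, 25.3% had their 2 lowest and 22.5% their 2 highest values on these arrays after quantile normalization, so the pattern was not limited to the members. Between the 2 brightest arrays Crabp1 differed by -0.51 and Aldh1a2 by 0.52 (Splotch null 3 minus wild type 1), and between the genotype means of the other 4 arrays by -0.001 and -0.21. Cyp26a1 differed by 0.52 and 0.089, Rarb by -0.15 and -0.25, and Stra6 by 0.19 and -0.40. The part of brightness in these values was not tested. The within-genotype SD of the members, pooled over the 2 genotypes, was 0.15 to 0.49. Its median was 0.28, beside a median of 0.20 over all genes.

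**Figure D4:**
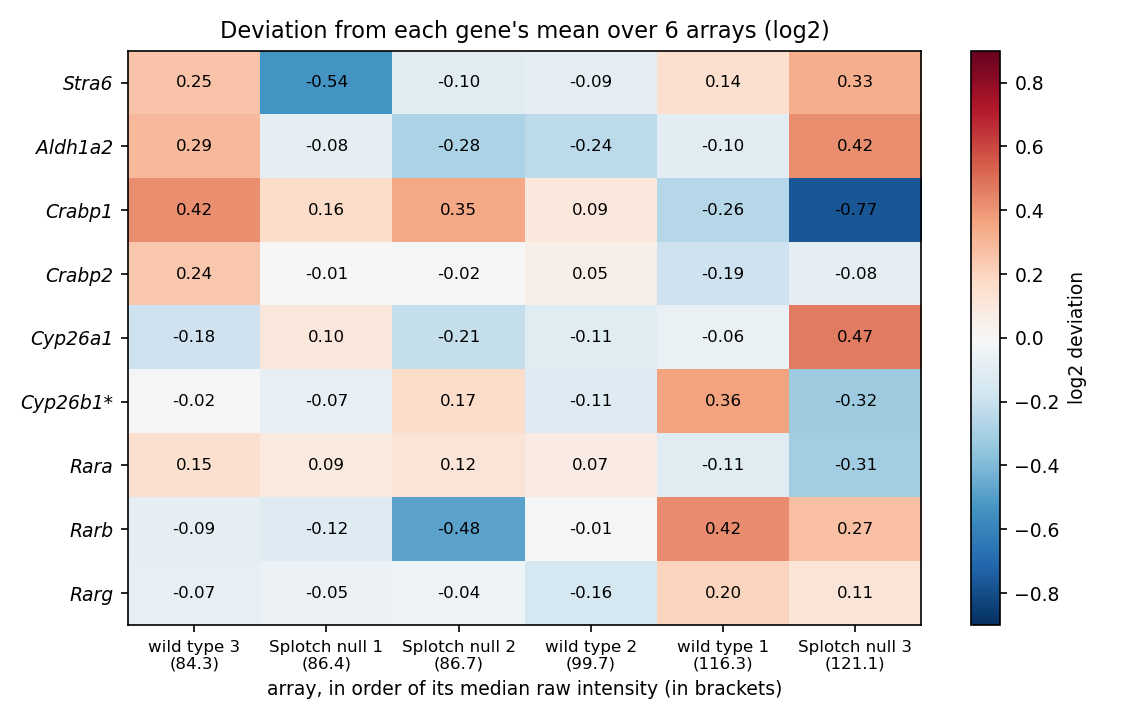
Deviation of each gene from its own mean over the 6 arrays on the log2 scale, in colour and digits, with the arrays ordered from left to right by their median raw intensity (in brackets). Crabp1, Crabp2 and Rara are lowest and Rarb and Rarg highest on the 2 brightest arrays, 1 of each genotype.

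The wider pathway was described with 67 further genes in 5 lists. Of these 63 had a probe, and 54 were tested, each by its brightest probe. At an adjusted p under 0.05 and at an unadjusted p under 0.05 the count was 0 of 54 in either direction, beside 0% and 1.43% of all genes tested. Their differences split 27 higher and 27 lower in Splotch null, with a median of -0.0012. The genotypes did not overlap for 2 of the 53 measured on all arrays, beside 5.1% of all genes so measured.

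The 13 tested dehydrogenases and reductases had a median difference of 0.030. Rdh10, the enzyme that supplies retinaldehyde to ALDH1A2, had log2 levels of 11.63, 10.80 and 11.03 in wild type and 10.98, 11.05 and 11.16 in Splotch null. The null arrays lay within the wild-type range, with a difference of -0.092 (SE 0.22). Dhrs3, which returns retinaldehyde to retinol, differed by 0.070 (SE 0.22), and the alternative synthases Aldh1a1 and Aldh1a3 by 0.096 (SE 0.16) and -0.25 (SE 0.19), Aldh1a3 being above background on 5 of 6 arrays. Adh5, an alcohol dehydrogenase found in most tissues, differed by -0.047 (SE 0.13). Cyp26c1, the third member of the CYP26 family, had no named probe.

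Of the retinol carrier, storage and cleavage genes 7 of 11 with a probe were tested, 5 higher and 2 lower in Splotch null, with a median difference of 0.11. Rbp4 and Ttr had the largest standard errors of the 54 tested genes. Rbp4, the plasma carrier of retinol, had log2 levels of 10.09, 11.05 and 11.67 in wild type and 10.35, 13.26 and 8.73 in Splotch null. Splotch null 2 was the highest and Splotch null 3 the lowest of all 6 arrays. Ttr, transthyretin, which carries RBP4 in plasma, followed the same extremes with 13.51 on Splotch null 2, 7.13 on Splotch null 3 and 8.15 to 10.48 on the other arrays. The differences were -0.16 (SE 1.05) for Rbp4 and 0.42 (SE 1.5) for Ttr.

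The mean of other yolk sac endoderm markers had its extremes on the same arrays as these carriers. The 7 other markers with usable spots on all arrays and above background on at least 3 had a mean log2 level of 11.30 on Splotch null 2, 7.02 on Splotch null 3 and 7.46 to 7.89 in wild type, and their summed intensity was 32183 on Splotch null 2 beside 1407 to 2024 in wild type. Not every marker was lowest on Splotch null 3, since Trf was lowest on wild type 2, Apoc2 on wild type 3 and Apob on Splotch null 1. Alb was not above background on any array. Stra6, the receptor for the carrier, had 8.14 on Splotch null 2, between the other null arrays. Aldh1a2 and Cyp26a1 had their extremes on the same 2 arrays in the opposite order, lowest on Splotch null 2 and highest on Splotch null 3. The part of yolk sac RNA in the values of the carriers and of these enzymes was not tested. Lrat, which stores retinol as esters, was not above background on any array. Fabp5, a fatty acid binding protein that can also bind retinoic acid, differed by -0.024 (SE 0.20) at its brighter probe.

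**Figure D5:**
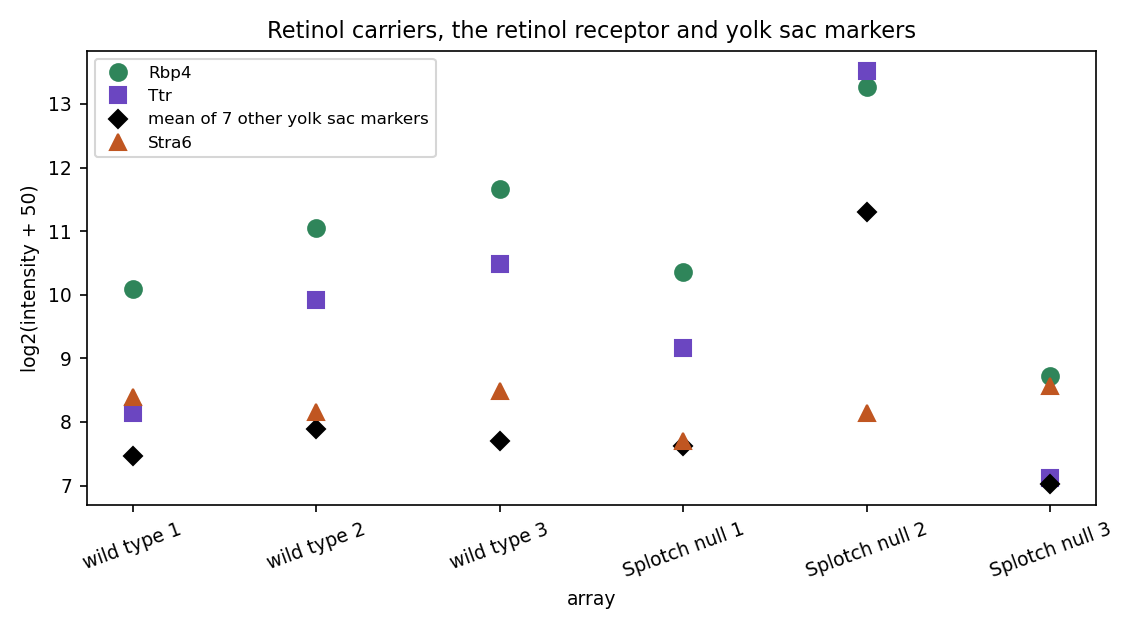
Log2 level of the retinol carriers Rbp4 and Ttr, of Stra6 and of the mean of 7 other yolk sac markers on each array. The carriers and the mean of the yolk sac markers are highest on Splotch null 2 and lowest on Splotch null 3, while Stra6 stays between 7.70 and 8.57.

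Of the receptors and coregulators 16 of 17 were tested, with a median difference of -0.049, 4 higher and 12 lower in Splotch null. The RXR partners of the RARs differed by 0.21 (SE 0.18) for Rxra, 0.067 (SE 0.16) for Rxrb and -0.046 (SE 0.12) for Rxrg. The second Rxra probe differed by -0.044 (SE 0.14), so the sign of Rxra depended on the probe. Rere, a coregulator of retinoic acid signalling in mouse somites, differed by 0.013 (SE 0.20).

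Genes known to respond to retinoic acid were divided in the sign of their differences. Of 18 tested, 10 were higher and 8 lower in Splotch null, with a median difference of 0.012. The list also holds Fgf8, a repressed gene, so these counts do not give a direction of the response. The Hox genes Hoxb1 and Hoxa5 differed by -0.094 (SE 0.17) and -0.052 (SE 0.16). Cdx1, a caudal homeobox gene, differed by -0.28 (SE 0.28) and Fgf8, which retinoic acid represses at the caudal end, by 0.29 (SE 0.23). Fgf8 was also counted among the tail bud genes above. Pax6, a neural tube gene, differed by -0.38 (SE 0.64), with 8.68 on Splotch null 2 and 11.56 on Splotch null 3. The 11 spinal neural tube markers, Pax6 included, had their lowest mean, 8.78, and their highest, 10.34, on the same 2 arrays, beside 9.58 to 10.07 in wild type. Their summed intensity was 11115 to 19575 in Splotch null and 14320 to 17570 in wild type, and Pax7 was not above background on any array.

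Gbx2, a homeobox gene of the posterior neural plate, was among the response genes without overlap. Its log2 level was 7.12, 7.33 and 7.51 in wild type and 7.53, 7.54 and 7.71 in Splotch null. The null arrays all lay above the wild-type arrays, and the difference of 0.27 (SE 0.14) did not pass the test. Gbx2 was named after its values were seen.

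The genes whose levels followed Aldh1a2 and Cyp26a1 most closely over the 6 arrays were sought among 13760 tested genes with usable spots on all of them. For Aldh1a2 these were Mta1, Blnk and Gramd4, with Pearson correlations of 0.986, 0.972 and 0.969. For Cyp26a1 these were Snx16, Cntln and Slc44a5, with 0.998, 0.998 and 0.995. Over 0.9 lay 88 genes for Aldh1a2 and 278 for Cyp26a1. The points share the arrays and their scaling, and 6 arrays leave such values as a description.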

How the data were processed

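Amplification of the RNA and its biotin label are given per the labels' protocols. The software CodeLink Expression Analysis 5.0.0.31312, per the file headers, wrote for each array a background-subtracted raw intensity, an intensity divided by the array's global median, and a quality flag. The authors' deposited value table held intensity that matched the normalized intensity times a constant per array within 1% for 100% of spots, with column medians of 0.985 to 0.996.

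Spots flagged G, L or S were used; flags G and S counted as above background. Raw intensity was floored at 0.0119. After adding 50, log2 values were quantile-normalized. Probes above background on at least 3 of 6 arrays with at least 2 usable spots per genotype (24434) entered a limma 3.58.1 fit (R 4.3.3), with Benjamini-Hochberg adjustment over all of them. A gene was represented by its probe with the highest mean. Array medians were 3.87 to 5.72 times the negative controls. The number of arrays limits the precision. Data were simulated for 23319 probes with the arrays' spreads and noise drawn independently for each probe. Of 200 probes changed 2-fold 37.5% were recovered, and of 200 changed 4-fold 90.5%, with 3 and 9 false calls. The simulated noise held no pattern shared between probes, as the 2 brightest arrays show in the data, so these shares do not give the recovery in the real data.

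Probes were named from GEO's platform annotation, updated by gene identifier to GRCm38.p6 symbols (21487 probes), by platform symbol (128) or by accession (536). Probes with several symbols (681) entered the adjustment only. A genome build for the array probes was not given in the sources used here.

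Members, lists and tests were chosen with earlier results of these data known. Named were all members; genes of the wider lists that directly partner a member, were the brightest of their list, or differed by at least 0.3 without overlap (log2); and the 3 genes most correlated with Aldh1a2 and Cyp26a1. Genes beyond these were chosen after their values were seen. Some genes of these lists are not reported here by name. Replicates were numbered in accession order. Alternatives are in the closing section. Figures used matplotlib 3.10.9.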

Additional observations from a re-analysis of the deposited data

How the results depend on the processing

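Over 20 alternative settings, 0 probes and 0 members passed an adjusted p of 0.05 in any, the lowest adjusted p of a member being 0.142. Cyp26a1 stayed higher and Rarb lower in Splotch null in all 20, between 0.059 and 0.40 and between -0.41 and -0.03. The sign turned, with no called value involved, for Aldh1a2 (leave-one-out range -0.17 to 0.19; -0.21 without the brightest array of each genotype), the P450RAI-2 probe (0.11 without these arrays), Rara (leave-one-out -0.15 to 0.063; 0.014 with array weights), Rarg (leave-one-out -0.057 to 0.12; -0.0026 with cyclic loess), Crabp1 (leave-one-out -0.39 to 0.17; 0.052 with array weights), Crabp2 (leave-one-out -0.18 to 0.035) and Stra6 (leave-one-out -0.42 to 0.0098). The count of genes with an unadjusted p under 0.05, 204 as chosen, was 2798 with array weights, whose estimate stopped before convergence, 676 with log2 array median as covariate, 446 without the brightest arrays and 116 to 556 with 1 array left out; leaving out wild type 2 gave 116, Splotch null 1 gave 135 and Splotch null 3 gave 556. Members with an unadjusted p under 0.05 numbered 1 with array weights (Stra6) and 0 to 1 with 1 array left out (Cyp26a1 without Splotch null 2). Pathway genes with such a p numbered 11 of 54 with array weights, beside 2798 of all 14310 genes in that setting. With 1 array left out they numbered 0 to 2, beside 116 to 556 of all genes, with 2 each without Splotch null 2, Splotch null 3 or wild type 3. The causes were not tested. No paired analysis was possible because the labels give no replicate numbers shared between the genotypes.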

Other observations

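Probes of a gene did not always show the same difference. Nr2f2, an orphan nuclear receptor gene that responds to retinoic acid, had 3 probes. The brightest differed by 0.16 (SE 0.15, Splotch null minus wild type), the next by -0.060 (SE 0.12) and the dimmest by -0.44 (SE 0.17). The dimmest did not overlap between the genotypes, with 7.99 to 8.44 in wild type and 7.49 to 7.88 in Splotch null. Its limma unadjusted p was 0.0365 (adjusted p = 0.9998). The counts of the wider lists leave this probe out, since they take the brightest probe of each gene. The dimmest probe was named after its values were seen. The probes of Cdx1 showed like differences, -0.28 (SE 0.28) and -0.29 (SE 0.27).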
